A study of Mus musculus with 2 samples.

Results

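The genes described here are the mouse zinc finger genes numbered Zfp400 to Zfp799. They were chosen by name, as every protein-coding gene of the RefSeq table on GRCm38.p6, the assembly behind mm10, whose symbol is Zfp and a number in that range. The rule found 147 of 21887 protein-coding genes. No measured value entered it, but the set was chosen with earlier results of these data known. They lie on 19 chromosomes, with 46 on chromosome 7, 14 on chromosome 13 and 10 on chromosome 17.

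Most proteins with such names carry C2H2 zinc fingers, small folds that hold a zinc ion and read a few bases of DNA each. Many of them also carry a KRAB domain, which binds the corepressor Trim28. Trim28 in turn brings in the histone methyltransferase Setdb1, and this pathway is known for silencing transposable elements. KRAB zinc finger genes multiplied by duplication and stand in clusters of near copies, while other Zfp genes stand alone and encode regulators of RNA, ribosomes or development.

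The study mapped H3K27ac, the acetylated lysine 27 of histone H3 that marks active promoters and enhancers, by CUT&Tag, in which an antibody guides a transposase to marked chromatin. Colonic macrophages (Siglec-F negative, Ly6C low, CD64 positive) came from 2 groups of male C57BL/6 mice aged 11.1 weeks. The Tle4cKO mice (genotype Tle4f/f Lyz2-Cre) lack the Groucho-family corepressor Tle4 in cells where the Lyz2 promoter drives Cre, which are the myeloid cells at large and not macrophages alone. The WT mice carry Lyz2-Cre without the floxed allele, and cells of 4 mice were pooled for each genotype. A group is therefore 1 library, the genotypes cannot be tested against each other, and replicate error is unknown. In pooled cells, fewer cells with a mark and less mark per cell cannot be told apart.

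The deposited lists hold 2350 summits for Tle4cKO and 10474 for WT on the standard chromosomes, each summit being a position of 1 bp with the authors' score, read as a −log10 of a p- or q-value. The median score was 4.05 in Tle4cKO and 4.47 in WT. Tle4 itself had 0 summits within 10 kb in either library, and this mark does not check the deletion. Read depth is unknown, such scores grow with depth, and a missing summit means that no peak was called, not that the mark was absent. Scores below are the authors' values and rank summits within a list. Of 15 macrophage markers, 0 had a summit within 1 kb of a gene end in Tle4cKO and 4 had one in WT, namely Cd14, Fcgr1, Cd68 and Cx3cr1, beside 6.19% (Tle4cKO) and 22.6% (WT) of all protein-coding genes. Within 10 kb 1 was called in Tle4cKO (Ptprc, 4.45, with none in WT) and 8 in WT, where Mrc1, Mertk, Adgre1 and Csf1r joined the 4, beside 11.6% (Tle4cKO) and 39.2% (WT) of all genes. Lyz2, C1qa, C1qb, C1qc, Itgam and Cd163 had none within 10 kb in either library. Of 21 markers of other cell types, 0 had a gene-end summit in Tle4cKO and 1, Cd4, had one in WT, where it also lay at the end of Gpr162. Within 10 kb 1 was called in Tle4cKO and 5 in WT. The endothelial gene Pecam1 was called in both, with 6.23 in Tle4cKO and 6.23 in WT, and Cdh5 (7.48), Cdh1, Ms4a1 and Cd4 in WT alone.

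Zfp400 to Zfp799 genes were often marked at their ends, and far more of them in the longer WT list. A gene end here is either outer end of the RefSeq gene, with a window of 1 kb. In Tle4cKO 16 of the 147 genes had a gene-end summit (10.9%, exact 95% interval 6.35 to 17.1%), where 6.19% of all protein-coding genes did. In WT 65 of 147 did (44.2%, 36.0 to 52.6%), where 22.6% of all protein-coding genes did. These intervals cover counting error alone and treat neighbouring genes as independent, which clustered genes are not. Counted as distinct summits, 16 Tle4cKO and 63 WT summits stood behind these genes.

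**Figure D1:**
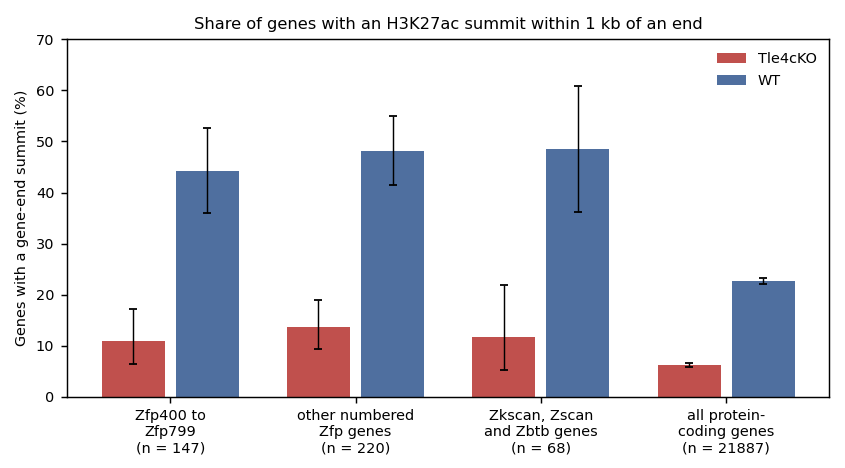
Share of genes (%) with an H3K27ac summit within 1 kb of an outer gene end, in Tle4cKO (red) and WT (blue), for Zfp400 to Zfp799, other numbered Zfp genes, Zkscan, Zscan and Zbtb genes, and all protein-coding genes. Bars are shares of the genes named under each pair and error bars are exact 95% intervals for counting error; Zfp400 to Zfp799 stand at 10.9% and 44.2% and all protein-coding genes at 6.19% and 22.6%.

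Of the 147 genes, 14 were called at a gene end in both libraries (5.6% of all protein-coding genes were) and 2 in Tle4cKO alone (0.594% of all). Another 51 were called in WT alone (17.0% of all) and 80 in neither (16806 of all 21887). Among genes with a WT gene-end summit, 14 of 65 (21.5%, 12.3 to 33.5%) also had a Tle4cKO one. Over all protein-coding genes that share was 24.7%, inside the interval of the zinc finger genes. With scores of at least 5 in both lists the share was 6.25% of zinc finger genes (2 of 32) and 13.8% of all genes. Counted as distinct WT summits with a Tle4cKO partner it was 2 of 30, with a wide interval (0.818 to 22.1%). When the WT list was reduced to its 2350 highest scores, 16 zinc finger genes had a gene-end summit in Tle4cKO and 25 in WT (17.0%), where 7.51% of all genes did in WT. Of these WT genes 9 of 25 (36.0%) were also called in Tle4cKO, and 43.9% of all genes were.

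The 14 genes called in both libraries had their summits at the same places. The Tle4cKO and WT summits lay between 13 and 404 bp apart, with a median of 89.5 bp, so all 14 pairs were within 500 bp. Zfp433 had the highest gene-end score of these genes in both lists, with 9.81 in Tle4cKO (position 81704899 of chromosome 10) and 22.9 in WT (position 81704883). It held rank 165 of 2350 in Tle4cKO and rank 73 of 10474 in WT. Its promoter is printed here because it carries the highest gene-end score of these genes, as a window around its annotated start (chr10:81704575-81704874, plus strand, RefSeq on GRCm38.p6, CpG in capitals):
Zfp433: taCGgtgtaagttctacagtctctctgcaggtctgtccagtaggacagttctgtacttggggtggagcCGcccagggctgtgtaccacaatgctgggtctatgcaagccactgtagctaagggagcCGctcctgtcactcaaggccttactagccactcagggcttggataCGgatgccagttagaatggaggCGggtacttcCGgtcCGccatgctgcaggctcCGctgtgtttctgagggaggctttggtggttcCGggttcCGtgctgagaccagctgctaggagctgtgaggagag
The window holds 10 CpG, fewer than the median of 21.5 over all genes with a WT summit at a start.

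After Zfp433 came Zfp438, with 5.92 in Tle4cKO and 11.9 in WT. Zfp738, of the chromosome 13 cluster described further on, had 1.96 in Tle4cKO and 11.0 in WT. Its Tle4cKO summit was among the lowest of that list, at rank 2292, while its WT summit was the third highest of Zfp400 to Zfp799 at a gene end. Zfp703, of the NET family of repressors, had 4.44 in Tle4cKO and 6.85 in WT, and its zebrafish relative Nlz1 is known to bind Groucho corepressors. Its paralogue Zfp503 was called in neither library, even within 10 kb.

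In the remaining genes called in both, scores were mostly moderate. Zfp511 had 3.47 in Tle4cKO and 7.99 in WT at an end that it shares with Tubgcp2, a subunit of the gamma-tubulin complex, so the summit cannot be given to either gene. Zfp606 had 4.05 in Tle4cKO and 7.19 in WT, Zfp788 had 3.11 in Tle4cKO and 7.64 in WT, and Zfp639 had 2.08 in Tle4cKO and 7.17 in WT. Zfp748 (2.63 in Tle4cKO, 6.75 in WT) and Zfp763 (3.76 in Tle4cKO, 5.65 in WT) belong to clusters on chromosomes 13 and 17. Zfp407, a regulator of glucose uptake in mouse fat cells, had 2.98 in Tle4cKO and 3.74 in WT.

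Zfp768, Zfp429 and Zfp770 stood high in the Tle4cKO list beside low or middle places in the WT list. Zfp768, whose human counterpart binds MIR repeats, had 5.48 in Tle4cKO (rank 615 of 2350) and 2.61 in WT (rank 9512 of 10474). Zfp429 had 5.23 (rank 692) in Tle4cKO and 2.36 (rank 9965 of 10474) in WT. Zfp770 had 5.17 in Tle4cKO and 4.83 in WT. These are ranks in lists of unequal length and show no change of signal.

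**Figure D2:**
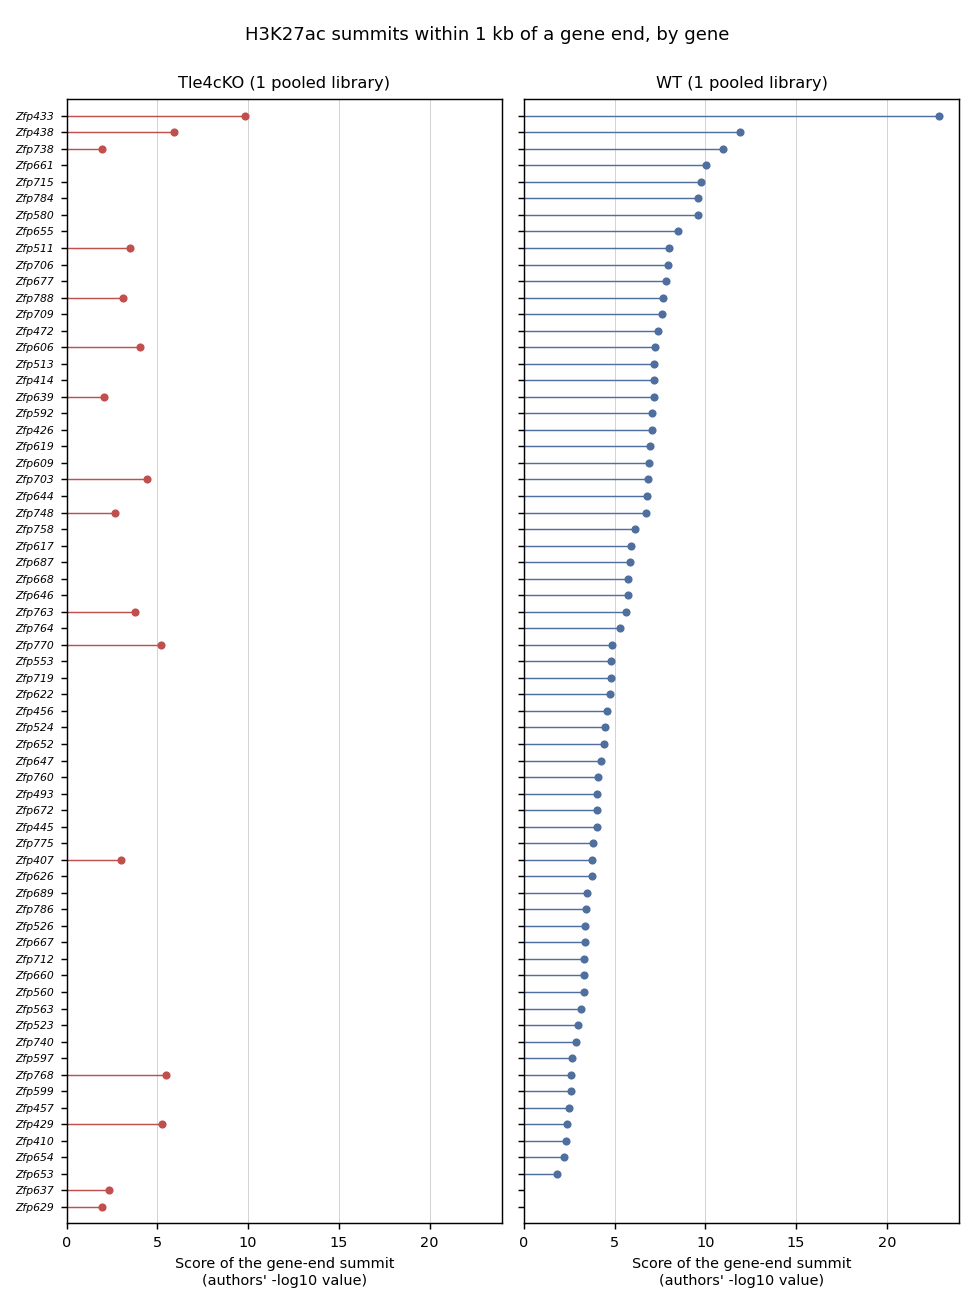
Score of the highest gene-end summit (authors' −log10 value, linear axis) for the 67 genes with a gene-end summit in either library, in Tle4cKO (left) and WT (right), ordered by WT score. A missing point means that no peak was called; 16 genes have a point in Tle4cKO and 65 in WT, and Zfp433 leads both.

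Zfp637 and Zfp629 had a gene-end summit in Tle4cKO and no WT summit within 10 kb. Zfp637 scored 2.34 at −53 bp from its nearest start, on the upstream side, and Zfp629 scored 1.94 at −8 bp. They held ranks 2161 and 2304 of the 2350 Tle4cKO summits. Within 10 kb, Zfp704 was the third gene with a Tle4cKO summit alone, with 2.74 in its gene body. The share of genes with a Tle4cKO summit alone within 10 kb was 0.832% over all protein-coding genes.

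The genes with a WT gene-end summit alone included several of the highest WT scores. Zfp661 had 10.0 in WT, at a place where its end and that of Mrps5, a mitochondrial ribosomal protein, lie together. Zfp715 had 9.75 and Zfp655 had 8.46. Zfp784 and Zfp580 share 1 summit of 9.60 at position 5038285 of chromosome 7. It lay 161 bp inside the start of Zfp784 and 234 bp outside the upstream outer end of Zfp580. The annotated start used for Zfp580 lies over 10 kb further downstream. Zfp706, which helps mouse embryonic stem cells leave self-renewal, had 7.92, and LOC115488529 ends at the same place. In each of these 6 genes no Tle4cKO summit was called within 10 kb. Of the 10 genes with the highest WT gene-end scores, 4 were also called in Tle4cKO (Zfp433, Zfp438, Zfp738 and Zfp511), and of the 10 lowest, 2 were.

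Further genes with a WT summit alone have known roles in chromatin or RNA. Zfp592 (7.08 in WT) and Zfp687 (5.86) encode partners in a complex with the chromatin reader Zmynd8. Zfp644 (6.80) encodes a partner of the H3K9 methyltransferases G9a and GLP. Zfp622 (4.74), related to yeast Rei1, acts in the maturation of the large ribosomal subunit. Zfp410 (2.30) is known as an activator of Chd4 in mouse and human cells. Zfp668 and Zfp646 share 1 summit of 5.71 between them. None of these had a Tle4cKO gene-end summit.

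Over the 51 genes called in WT alone, the median WT score was 4.56. It was 7.01 over the 14 called in both, whose median in Tle4cKO was 3.90. The 63 distinct WT summits at these genes' ends had scores from 1.84 to 22.9 with a median of 4.81, where all WT gene-end summits had a median of 5.06. The 16 Tle4cKO summits ran from 1.94 to 9.81 with a median of 3.62, where all Tle4cKO gene-end summits had a median of 4.11.

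Whether a WT summit had a counterpart in Tle4cKO was also counted by WT score. Of the 63 distinct WT gene-end summits, 14 (22.2%, 12.7 to 34.5%) had a Tle4cKO summit within 500 bp, where 22.6% of all WT gene-end summits did. With a WT score under 5, 4 of 33 zinc finger summits had a partner (12.1%), beside 10.5% of 2110 summits of other genes. From 5 to 10 it was 7 of 26 (26.9%), beside 28.2% of 1829. At 10 and above it was 3 of 4, beside 65.4% of 356. The share of other genes was higher in each higher band, while the intervals of the zinc finger genes overlap between bands (3.40 to 28.2%, 11.6 to 47.8% and 19.4 to 99.4%). In all 3 bands the value of the other genes lay inside the interval of the zinc finger genes. In the other direction, 14 of the 16 Tle4cKO summits (87.5%) had a WT partner, and 87.3% of all Tle4cKO gene-end summits did.

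**Figure D3:**
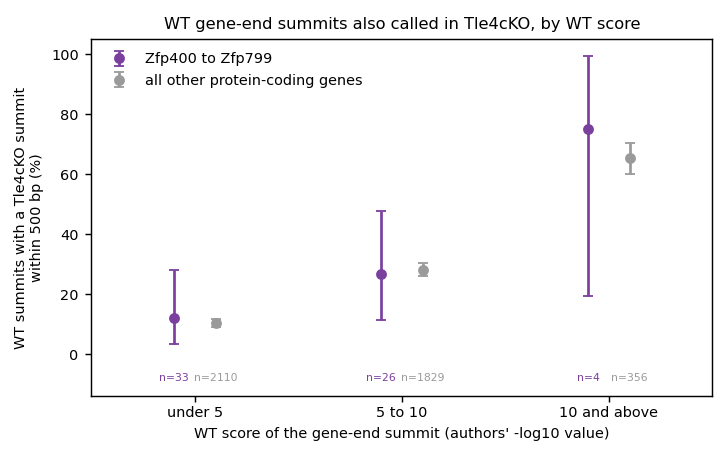
Share (%) of WT gene-end summits with a Tle4cKO summit within 500 bp, by WT score band, for Zfp400 to Zfp799 (purple) and all other protein-coding genes (grey). Points are shares, bars exact 95% intervals and n the distinct WT summits; the zinc finger genes stand at 12.1%, 26.9% and 75.0%.

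The summits lay mainly at the start of transcription. Strand and starts were known for 116 of the 147 genes, with 138 start sites in all. In Tle4cKO 13 of 13 gene-end summits of these genes lay within 1 kb of an annotated start, and in WT 47 of 53 did (88.7%, where all genes had 92.4%). The median position was 167 bp downstream of the start in Tle4cKO and 67 bp downstream in WT. Over all protein-coding genes the median was 107 bp in Tle4cKO and 105.5 bp in WT. Summits lay on the downstream side in 9 of 13 cases in Tle4cKO (69.2%, 38.6 to 90.9%) and in 26 of 47 in WT (55.3%, 40.1 to 69.8%). The shares over all protein-coding genes, 61.2% in Tle4cKO and 61.0% in WT, lay inside these intervals. The 6 WT exceptions, over 1 kb from any annotated start, were at Zfp580, Zfp445, Zfp626, Zfp786, Zfp526 and Zfp597. By strand and outline, all 6 lay within 1 kb of the upstream outer end of the gene itself, where the promoter entries give no start. In Zfp580, Zfp445 and Zfp786 the exception also lay at the end of a neighbour, namely Zfp784, Zkscan7 and Zfp398.

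**Figure D4:**
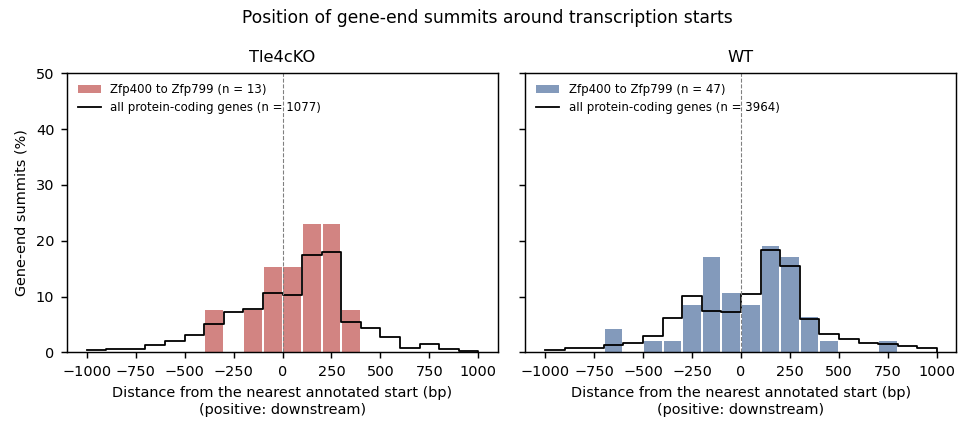
Distance (bp, positive downstream) from the nearest annotated start to gene-end summits within 1 kb of it, in bins of 100 bp as a share (%) of summits, in Tle4cKO (left) and WT (right). Coloured bars are Zfp400 to Zfp799 (13 and 47 summits) and the black line all protein-coding genes; medians of the zinc finger genes are 167 and 67 bp.

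Looking at annotated starts instead of outer ends brought in 13 further genes, whose marked start lies inside the gene outline. With this window 18 of 116 genes (15.5%) had a Tle4cKO summit, where 6.92% of all genes with a start did. In WT 61 of 116 (52.6%) did, where 25.0% of all did. Both libraries were called at 16 genes (6.36% of all), Tle4cKO alone at 2 (0.566% of all) and WT alone at 45 (18.6% of all). Zfp638, which in human cells silences unintegrated retroviral DNA together with the HUSH complex, had 3.99 in Tle4cKO and 19.7 in WT. Its summits lay 450 bp downstream of an internal start in Tle4cKO and 256 bp downstream in WT, and the WT one held rank 100 of 10474. Zfp451, a SUMO ligase in human cells, had 2.96 in Tle4cKO and 5.37 in WT. Zfp583 (4.06 in Tle4cKO, 4.21 in WT) and Zfp708 (3.99 in Tle4cKO, 3.49 in WT) were also called in both. Zfp672, whose end was called in WT alone (4.01), had an internal start called with 4.56 in Tle4cKO and 8.22 in WT. The other 9, called in WT alone, were Zfp746 (7.74), Zfp771 (6.83), Zfp595 (6.43), Zfp759 (5.29), Zfp458 (4.38), Zfp791 (3.34), Zfp558 (3.08), Zfp688 (3.07) and Zfp467 (2.67). Zfp445, a KRAB zinc finger protein that maintains imprints in mouse and human, was already counted through the end it shares with Zkscan7. At its annotated start it had a WT summit of 10.7, at 267 bp downstream, and none in Tle4cKO.

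Widening to the gene and 10 kb on either side, 32 of the 147 genes (21.8%) had a Tle4cKO summit, where 11.6% of all protein-coding genes did. In WT 92 (62.6%) did, where 39.2% of all did. Of the 147 genes, 29 had both (10.8% of all), 3 a Tle4cKO summit alone and 63 a WT summit alone (28.4% of all). The other 52 had neither, as did 13132 of all 21887 protein-coding genes. In all 29 genes with both, a Tle4cKO and a WT summit lay within 500 bp of each other. Distinct summits numbered 32 in Tle4cKO and 113 in WT. Of the Tle4cKO summits 90.6% (75.0 to 98.0%) had a WT summit within 500 bp, beside 81.3% over all protein-coding genes. Of the WT summits 25.7% (17.9 to 34.7%) had a Tle4cKO one, beside 18.4%. Both values over all genes lay inside the intervals. Of the Tle4cKO ones 16 lay at gene ends, 11 in gene bodies and 5 in flanks, and of the WT ones 63 lay at gene ends, 28 in gene bodies and 22 in flanks.

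Part of this wider window belongs to neighbours. Of the flanking summits, 4 of 5 in Tle4cKO and 17 of 22 in WT lay within 1 kb of the end of a gene outside Zfp400 to Zfp799. At gene ends themselves it was 1 of 16 in Tle4cKO and 12 of 63 in WT. Some of these neighbours are zinc finger genes too, such as Zfp953, Zfp874a, Zfp26 and Zfp944. The summits counted for Zfp605 (6.35 in Tle4cKO, 11.8 in WT) lay at the end of Chfr, a mitotic checkpoint gene. Those counted for Zfp541 (3.54 in Tle4cKO, 11.1 in WT) lay at the end of Napa, which encodes a SNAP protein of vesicle fusion. The flanking summits counted for Zfp456 (3.10 in Tle4cKO, 8.50 in WT) lay at the end of Zfp953.

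The highest summit of the wider window lay in the body of Zfp473, known for its part in the U7 snRNP that processes histone mRNA ends. It scored 16.3 in Tle4cKO (position 44738817 of chromosome 7, rank 86) and 25.6 in WT (position 44738827, rank 64). The summits lay about 9.5 kb downstream of the nearest annotated start and near no other gene end, while the start of Zfp473 itself had no summit in either library. Both Zfp407 and Zfp469 had 3 WT summits within 10 kb. Zfp407 had them in its body and at its end, with Tle4cKO partners at 2 of the 3 places. Zfp469 had 0 in Tle4cKO, and the nearest end for its flanking summit was that of Zfpm1.

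The 52 of 147 genes without a summit within 10 kb in either library stand beside 13132 of all 21887 protein-coding genes. Some of the 52 are named here for known roles, after their values were seen, and they show no trend of the set. Zfp423 and Zfp521, partners of the Ebf factors in fat, bone and B cell development, were among them. So were Zfp503, Zfp536, Zfp462 and Zfp568, a mouse repressor of the placental Igf2 promoter. Zfp598, the ubiquitin ligase that senses collided ribosomes, also had none. Zfp516, which activates brown fat genes in mice, had a WT summit of 5.40 in its body and no Tle4cKO summit.

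The largest run of these genes stood on chromosome 13. When genes at most 100 kb apart were linked, 33 of the 147 fell into 6 runs of 3 or more, and the chromosome 13 run held 11 genes from Zfp712 to Zfp748 (67038594 to 67553152). It lies in the region known for the Rsl genes, KRAB repressors of sex-dependent liver genes in mice. With a link of 200 kb it also took in Zfp738 and Zfp493. Of these 13 genes, 3 had a gene-end summit in Tle4cKO (Zfp429, Zfp748 and Zfp738) and 7 in WT, and the 3 were among the 7. Within 10 kb 6 genes were called in Tle4cKO and 12 in WT, where the exception was Zfp455. Behind them stood 6 distinct Tle4cKO summits and 13 WT summits. In each library these include summits at the ends of Zfp953 and Zfp874a, genes outside Zfp400 to Zfp799. Zfp456 was called in Tle4cKO only through the summit at Zfp953. Zfp459 was called in both libraries only through the summits at Zfp429 and Zfp874a. On chromosome 13 as a whole, 3 of 14 zinc finger genes were called at a gene end in Tle4cKO and 7 of 14 in WT. Of all genes of that chromosome 9.77% (Tle4cKO) and 28.2% (WT) were. Within 10 kb it was 6 of 14 in Tle4cKO and 12 of 14 in WT, beside 15.1% (Tle4cKO) and 43.1% (WT) of all. The contrast was larger at annotated starts than at gene ends, in a window added after seeing the data. There 4 of 13 zinc finger genes were called in Tle4cKO (30.8%, 9.09 to 61.4%). In WT 10 of 13 were (76.9%, 46.2 to 95.0%). Of all genes of the chromosome 10.9% (Tle4cKO) and 31.4% (WT) were.

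**Figure D5:**
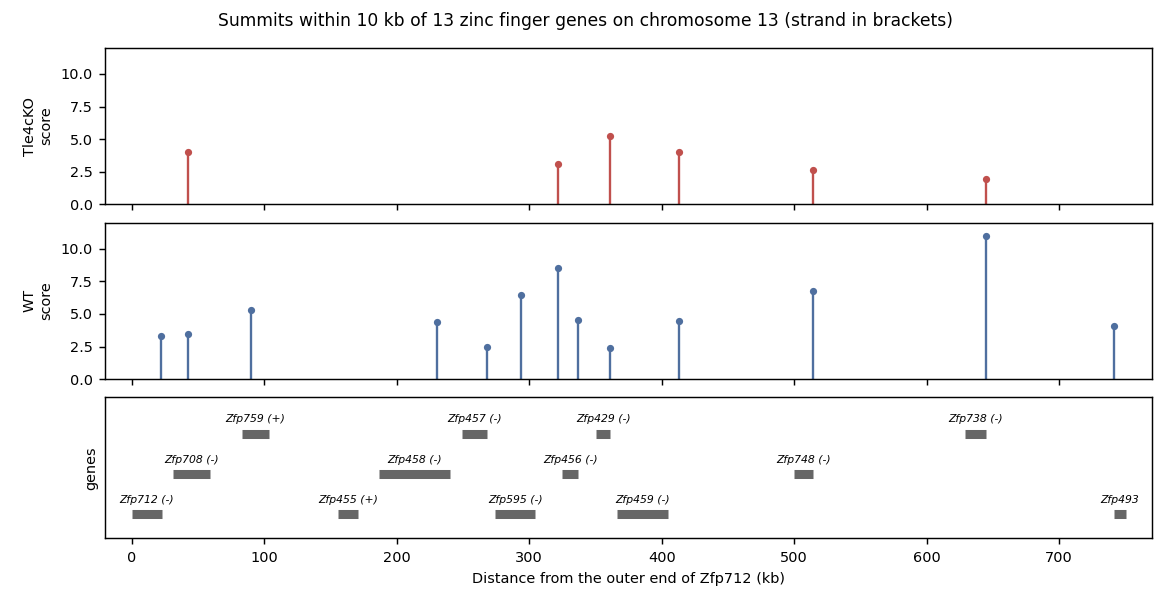
Summit scores (authors' −log10 value) in Tle4cKO (top) and WT (middle) within 10 kb of 13 zinc finger genes on chromosome 13, by distance (kb) from the outer end of Zfp712, with gene outlines below and strand in brackets where known. There are 6 Tle4cKO and 13 WT summits, each Tle4cKO summit stands at a WT one, and Zfp738 has the highest WT score at 11.0. Summits at the ends of Zfp953 and Zfp874a, genes outside the set, are included in both libraries.

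Some promoters of this run are near copies. The closest pair was Zfp456 and Zfp429, with 269 of 292 aligned bases alike (92.1%), followed by Zfp759 and Zfp457 with 248 of 273 (90.8%). Reads from such near copies can be hard to place, and how the authors treated reads with several matches is not given in the sources used here. In 11 of the 12 genes with a promoter entry, a window held the 13-base element ACTACANNTCCCA, searched on both strands and found here on the opposite one. It was taken from these same sequences, as the word of 13 letters with 2 free ones that most of these genes hold, so its frequency here is fixed by that choice. The stretches around it, 5′ to 3′ on each gene's own strand with the element in capitals, are shown because they are what these promoters share:
Zfp712: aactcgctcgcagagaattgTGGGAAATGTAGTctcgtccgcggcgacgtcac
Zfp708: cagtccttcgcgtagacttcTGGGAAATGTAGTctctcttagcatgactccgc
Zfp759: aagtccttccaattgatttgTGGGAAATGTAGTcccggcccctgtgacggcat
Zfp455: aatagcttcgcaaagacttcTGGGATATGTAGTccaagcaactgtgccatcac
Zfp458: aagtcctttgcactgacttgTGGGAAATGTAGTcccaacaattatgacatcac
Zfp457: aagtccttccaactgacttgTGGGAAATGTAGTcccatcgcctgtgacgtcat
Zfp595: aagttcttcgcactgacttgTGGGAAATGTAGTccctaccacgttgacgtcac
Zfp456: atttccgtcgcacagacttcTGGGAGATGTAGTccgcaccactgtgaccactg
Zfp429: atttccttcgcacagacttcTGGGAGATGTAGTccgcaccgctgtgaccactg
Zfp748: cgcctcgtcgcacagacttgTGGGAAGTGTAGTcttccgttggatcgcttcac
Zfp738: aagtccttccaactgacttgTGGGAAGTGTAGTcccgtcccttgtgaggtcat
They lie at chr13:67061195-67061247 (minus strand), chr13:67128155-67128207 (plus strand), chr13:67399807-67399859 (minus strand), chr13:67683537-67683589 (minus strand) for Zfp712, Zfp759, Zfp429 and Zfp738, on GRCm38.p6 from RefSeq. Counted from the start, the element began at −27 bp in Zfp748, at −179 bp in Zfp458 and between −80 and −52 bp in the other 9.

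The closest pair differed in its calls, while Zfp759 and Zfp457, the next closest, were both called at a start in WT alone. Zfp429 had 5.23 in Tle4cKO and 2.36 in WT, while Zfp456 had no Tle4cKO summit at its end and 4.56 in WT. The windows of Zfp456 (chr13:67375714-67376013, minus strand) and Zfp429 (chr13:67399718-67400017, minus strand) are given in full for comparison, with CpG in capitals:
Zfp456: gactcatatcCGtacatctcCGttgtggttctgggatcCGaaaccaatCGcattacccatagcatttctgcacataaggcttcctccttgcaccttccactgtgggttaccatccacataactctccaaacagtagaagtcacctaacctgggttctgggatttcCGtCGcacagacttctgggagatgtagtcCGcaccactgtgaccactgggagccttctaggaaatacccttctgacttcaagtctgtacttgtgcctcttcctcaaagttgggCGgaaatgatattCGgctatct
Zfp429: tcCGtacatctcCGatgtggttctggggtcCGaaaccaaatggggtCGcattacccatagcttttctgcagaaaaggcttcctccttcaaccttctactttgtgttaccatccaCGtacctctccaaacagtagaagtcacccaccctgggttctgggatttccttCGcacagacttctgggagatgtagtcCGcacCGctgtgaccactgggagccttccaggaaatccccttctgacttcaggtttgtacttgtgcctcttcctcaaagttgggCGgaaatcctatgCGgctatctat
They hold 9 and 10 CpG. Of the 11 genes with the element, 4 had a Tle4cKO summit at a start (Zfp429, Zfp708, Zfp738 and Zfp748) and 10 a WT one. Zfp455, which holds the element, had neither, and Zfp459, which lacks it, had no summit at its annotated start in either library.

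Of the 104 genes elsewhere with a promoter entry, 9 held the element, among which Zfp606 was called at its start in both libraries and Zfp661 in WT alone. The other 7, Zfp420, Zfp444, Zfp454, Zfp566, Zfp605, Zfp691 and Zfp790, had no start summit. Of all 17492 protein-coding genes with a promoter entry, 2.38% held it. Outside the run, then, 1 of 9 genes with the element had a Tle4cKO start summit and 2 of 9 a WT one. Of the 96 zinc finger genes without it, 13.5% did in Tle4cKO and 51.0% in WT. Over all genes the Tle4cKO shares were 16.1% with the element and 6.70% without, and the WT shares 46.0% with it and 24.4% without. A match of letters is a description and not a binding site.

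CpG, the dinucleotide in which many active promoters are rich, was counted in the same windows. The median promoter of a zinc finger gene held 16.5 CpG where a Tle4cKO summit lay at a start and 16 where none did, beside 21 and 12 over all protein-coding genes. For WT the zinc finger medians were 17.5 with a summit and 16 without, beside 21.5 and 8.5 over all genes. No test of this difference was run. The genes of the chromosome 13 run held from 5 to 16 CpG with a median of 9, and 10 of the 12 were marked at a start in WT.

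Short promoter motifs were counted on both strands in the same windows. The letters CCGGAAG, an ETS-type motif, were found in 25 of 116 zinc finger genes (21.6%), where 12.9% of all genes held them. Of zinc finger genes with these letters 5 of 25 had a Tle4cKO start summit and 17 of 25 a WT one (68.0%), and of those without them 14.3% in Tle4cKO and 48.4% in WT. Over all genes the Tle4cKO shares were 14.4% with the letters and 5.81% without, and the WT shares 49.4% and 21.3%. The letters TATAAA were found in 11 of 116 zinc finger genes (9.48%), where 14.8% of all genes held them. GGGCGG was found in 55.2% beside 49.2%, CCAAT in 40.5% beside 42.3% and TGACGTCA in 4.31% beside 2.54%. AANATGGCG, a YY1-type motif, was found in 6.90% beside 3.64%, and an NRF1-type motif in 12.1% beside 7.17%.

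Elsewhere, the 7 genes from Zfp553 to Zfp689 on chromosome 7 (127233061 to 127449158) had 1 gene-end call in Tle4cKO, Zfp768, and 4 in WT. The 5 genes from Zfp628 to Zfp580 on the same chromosome had 0 in Tle4cKO and 3 in WT, which rest on 2 summits. Zfp472, Zfp763 and Zfp563 on chromosome 17 were all called in WT (7.40, 5.65 and 3.17), and Zfp763 in Tle4cKO as well (3.76). Zfp773, Zfp418 and Zfp772 had no gene-end summit in either library. Over all 33 genes in runs, 4 were called in Tle4cKO (12.1%) and 16 in WT (48.5%), and of the 114 outside runs, 12 were in Tle4cKO (10.5%) and 49 in WT (43.0%).

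By chromosome, the 46 genes on chromosome 7 had 5 gene-end calls in Tle4cKO (10.9%) and 19 in WT (41.3%), where 5.12% (Tle4cKO) and 17.3% (WT) of all genes of that chromosome did. The 10 on chromosome 17 had 1 in Tle4cKO and 8 in WT, where 4.82% (Tle4cKO) and 25.1% (WT) of all did. On chromosome 18, Zfp407 and Zfp438 were called at a gene end in both libraries and the other 5 genes in neither. Over all protein-coding genes, 5.6% were called in both and 16806 of 21887 in neither. The share over all genes of chromosome 18 was not counted, so these few calls describe no trait of that chromosome.

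Other zinc finger genes give a wider comparison. Of 220 other numbered Zfp genes, 30 had a gene-end summit in Tle4cKO (13.6%, 9.39 to 18.9%) and 106 in WT (48.2%, 41.4 to 55.0%). Of 68 Zkscan, Zscan and Zbtb genes, 8 did in Tle4cKO (11.8%) and 33 in WT (48.5%). The intervals overlap those of Zfp400 to Zfp799 in both libraries.

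The genes through which KRAB zinc finger proteins act were examined as a list of 30 cofactors. At gene ends 5 had a summit in Tle4cKO (16.7%) and 13 in WT (43.3%), 4 of them in both, beside 6.19%, 22.6% and 5.6% of all protein-coding genes. Hdac2, a histone deacetylase, had 8.51 in Tle4cKO and 20.3 in WT. Gatad2a, of the NuRD complex, had 4.92 in Tle4cKO and 9.58 in WT. Smarcad1, a remodeller that binds Trim28, had 2.89 in Tle4cKO and 5.36 in WT. Mphosph8, of the HUSH complex, had 3.62 in Tle4cKO and 4.70 in WT, and Tasor of the same complex had 4.53 in Tle4cKO and 12.4 in WT within 10 kb but none at an end. Resf1, a partner of Setdb1, had a gene-end summit in Tle4cKO alone (6.71), with a WT summit of 6.89 elsewhere within 10 kb. Setdb1 (7.16) and Morc2a (9.54) were called at an end in WT alone, as were Pias1, Cbx3, Cbx5, Mta2, Rbbp4, Gatad2b and Pphln1. Within 10 kb Setdb1 also had a Tle4cKO summit (2.29), and so did Gatad2b (4.63 in Tle4cKO, 4.06 in WT). Of the genes called in WT alone, Cbx3, Cbx5, Mta2, Rbbp4 and Pphln1 share the place with the end of another gene. Trim28 itself had no gene-end summit in either library and a WT summit of 7.13 within 10 kb. Within 10 kb, 9 of the 30 cofactors had no summit in either library, beside 13132 of all 21887 protein-coding genes. They were Chd3, Chd4, Hdac1, Mbd3, Cbx1, Sumo2, Uhrf1, Atrx and Rbbp7.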

How the data were processed

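H3K27ac CUT&Tag was measured in 1 pooled library of each genotype. The deposited files are summit lists of 1 bp positions on mm10 with a score that the authors' peak caller gave, read from its values as a −log10 of a p-value or q-value. Which of these it is, the peak caller, its threshold and any control are not given in the sources used. Cutadapt 1.14, Bowtie2 2.2.5 and mm10 are named per the submitters' processing notes. No reads or depths were analysed here. Such scores rise with depth, so a fixed threshold calls more peaks in a deeper library.

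Summits off the standard chromosomes were dropped, namely 2 mitochondrial summits in Tle4cKO and 4 in WT. Each remaining summit was assigned to RefSeq protein-coding genes of GRCm38.p6 by distance to either outer gene end (1 kb) or to the gene (10 kb), and counted once in counts of distinct summits. Starts and promoter windows came from RefSeq promoter entries, which matched 116 of the 147 genes. The pattern of the symbol also matched 4 genes that are not protein-coding, which were left out. A pair of Tle4cKO and WT summits within 500 bp was taken as shared. Intervals are exact (Clopper-Pearson) at 95% and cover counting error only. The counting was checked on simulated summits. Python 3.11.15, pandas 2.3.3, numpy 2.4.6 and scipy 1.17.1 were used.

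The genes, the cofactor and marker lists and the rule for named genes were chosen with earlier results of these data known. The rule named genes with a Tle4cKO gene-end summit, the 10 with the highest WT gene-end scores, the 5 highest without a Tle4cKO summit within 10 kb, genes with 3 or more summits, genes of runs, cofactors with a gene-end summit and genes that share a summit. Further genes are named for a known role or for an internal start, and were chosen after their values were seen.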

Additional observations from a re-analysis of the deposited data

How the results depend on the processing

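Of 60 recomputed values, 44 stayed within 1.5 times the reported count or, for the share with a partner, inside its interval. These still include moves such as 33 linked genes, which were 22 with a link of 50 kb and 44 with one of 200 kb. With a gene-end window of 500 bp, Tle4cKO calls numbered 10 genes and 10 distinct summits. With scores of at least 5 in both lists, gene-end calls were 5 genes in Tle4cKO, 32 in WT and 2 in both, calls within 10 kb were 8 in Tle4cKO, 55 in WT and 4 in both, and the share of WT gene-end summits with a Tle4cKO partner was 6.67% (2 of 30). All protein-coding genes then had 1.97% in Tle4cKO and 12.1% in WT, and of genes with a WT call 6.25% of zinc finger genes and 13.8% of all genes were also called in Tle4cKO. With scores of at least 10, gene-end calls were 0 in Tle4cKO, 4 in WT and 0 in both. With as many WT summits as Tle4cKO has, taken by score, gene-end calls were 25 in WT and 9 in both, and calls within 10 kb were 42 in WT and 17 in both. These follow from fewer summits. The annotated-start window (18 genes in Tle4cKO, 61 in WT, 16 in both) and the partner share without the chromosome 13 genes (19.6%, 11 of 56) were added after seeing the data. The alternative by number of C2H2 fingers was not run, since no protein table was used here. No paired analysis was possible because each genotype is 1 library and no result comes from a test. Unknown depth limits every count: a gene without a summit may carry signal below the threshold.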
